A study of Homo sapiens with 14 samples.

Results

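The distal primed-only BAF regions without SOX2 are stretches of the genome that BAF occupied in primed but not in naïve human embryonic stem cells (hESCs), away from promoters and with no SOX2 peak. BAF is an ATP-dependent chromatin remodelling complex, and regions were built by merging the peaks of BRG1 (SMARCA4), one of its alternative ATPases, with those of BAF155 (SMARCC1), a scaffold subunit. A region belongs to the class when it was called in primed cells, when no naïve BAF region shared at least 25% of either interval with it, when its midpoint lay more than 1 kb from every annotated transcript start, and when it did not share 25% with a primed SOX2 peak. On chromosomes 1 to 22 and X of hg38 this rule kept 22237 regions. They made up 38.0% of the 58508 primed BAF regions, 73.3% of the 30335 primed-only regions and 85.9% of the 25895 distal primed-only regions. The whole series held 106813 BAF regions when naïve-only regions were added. The study reports fewer merged BAF peaks in each state and in all, so some members may not be BAF peaks there. Members were chosen by the peak calls themselves (BRG1 and BAF155 in both states, and SOX2 in primed cells), so their presence in primed and absence from naïve lists is the definition and not a result.

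The chromatin came from WIBR3, an established hESC line, by chromatin immunoprecipitation and sequencing (ChIP-seq). Primed cells were kept in conventional serum-containing medium with FGF2, and naïve cells in the 5i/L/A medium, after being converted from primed cells and expanded polyclonally. Mouse feeder cells lay under both, and the labels name no genetic change or treatment beyond the culture condition. The groups used here are primed BRG1, primed BAF155, primed SOX2, naïve BRG1 and naïve BAF155, with naïve BRM, primed BRM and naïve SOX2 as further lists. BRM (SMARCA2) is the other ATPase that BAF can carry. Each BAF group had 1 library. The 2 SOX2 libraries of a state came with lists of identical coordinates and were counted as 1. Shares and odds ratios below therefore carry intervals for counting error only, regions are not replicates, and no p-value is given. The number of chromosomes, of 23, on which a difference has the same direction is given as a description beside it.

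Most members rest on a single list. The primed BAF155 list had 58352 peaks and the primed BRG1 list 15611, against 62338 and 57853 in naïve cells, and the primed SOX2 list had 9290. A BAF155 peak was present in 99.7% of members, and a BRG1 peak in 1551 of them (6.97%, exact interval 6.64 to 7.32%). Read totals were not used here, and a region without a peak is one below the threshold of the authors' peak caller. The deposited SOX2 lists are also shorter than those the study describes in its supplement, so members without SOX2 are regions without a peak in the deposited list and may hold SOX2 peaks of the longer one. Gene expression was not measured in these libraries. All 8 primed marker genes (ZIC2, SFRP2, SALL1, PTPRZ1, THY1, DUSP6, CDH2 and SOX11) had at least 1 member within 60 kb of the gene body, and 3 of the 8 naïve marker genes did. Of all protein-coding genes, 58.9% had a member within 60 kb of a transcript start. The share by gene body was not computed. Members are primed-only by definition, and the study shows SALL1 and PTPRZ1 as primed-specific examples from these cells. The counts are therefore a description and no check of the state labels. Around the primed markers there were 34 members and 10 distal naïve-only regions without BRM. At least 1 such naïve-only region lay near 6 of the 8 primed markers and all 8 naïve markers. Around the naïve markers the numbers were 5 and 60. In the longer list of 20 primed-state genes used below they were 57 and 59, and 9 of these genes had more members. In that of 19 measured naïve-state genes they were 8 and 149. Over all protein-coding genes the median per gene was 1 member and 3 naïve-only regions. KLF17, DPPA3, DPPA5, DNMT3L and KHDC3L had no member nearby.

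Distal BAF regions are generally taken as candidate enhancers, where the complex slides or evicts nucleosomes so that transcription factors can reach DNA. BAF has no strong sequence preference of its own, so the DNA at its sites reflects the factors that can bind there. SOX2, a high-mobility-group factor, pairs with OCT4 on a composite element in pluripotent cells. CTCF is a zinc finger protein of insulators and loop anchors. AP-1 is the FOS and JUN dimer, TEAD proteins are the DNA-binding partners of YAP and TAZ, ZIC proteins are zinc finger factors of neurectoderm and postimplantation epiblast, and GRHL proteins are factors of surface epithelium.

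To show what such regions look like, a member of high fold enrichment is printed below for each of 7 motifs. Fold enrichment is the linear ratio of ChIP over input that the peak caller gave. Each stretch has 120 bases, is written from 5′ to 3′ on the plus strand of hg38, and comes from the 200 bp around the midpoint of the region. Capitals mark the matches to the named motif, which may lie on either strand.
CTCF, chr9:126558166-126558285: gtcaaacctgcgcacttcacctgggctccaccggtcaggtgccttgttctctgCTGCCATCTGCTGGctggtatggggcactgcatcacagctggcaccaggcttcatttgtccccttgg
AP-1 and TEAD, chr1:166952599-166952718: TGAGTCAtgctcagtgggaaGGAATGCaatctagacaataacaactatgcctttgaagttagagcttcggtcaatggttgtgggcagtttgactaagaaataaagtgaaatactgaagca
ZIC, chr10:85667945-85668064: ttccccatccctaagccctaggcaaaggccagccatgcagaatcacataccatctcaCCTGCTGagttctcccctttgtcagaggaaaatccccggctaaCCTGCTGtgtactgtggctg
octamer, chr3:108485283-108485402: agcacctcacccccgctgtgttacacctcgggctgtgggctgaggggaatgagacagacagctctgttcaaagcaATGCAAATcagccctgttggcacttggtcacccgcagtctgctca
OCT4-SOX2, chr15:93362365-93362484: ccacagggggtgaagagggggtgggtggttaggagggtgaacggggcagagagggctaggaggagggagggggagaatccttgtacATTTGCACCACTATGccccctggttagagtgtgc
GRHL, chr9:80410088-80410207: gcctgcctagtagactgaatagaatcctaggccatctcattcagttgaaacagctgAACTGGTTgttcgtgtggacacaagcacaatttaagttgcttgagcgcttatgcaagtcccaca

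The CTCF example is also the member with the highest fold of all. It spans chr9:126558110-126558352, is intergenic, lies 55.7 kb from the nearest protein-coding transcript start, that of LMX1B (ENSG00000136944.19), a LIM-homeodomain factor of dopaminergic neurons and limb, and had folds of 10.5 for BAF155 and 7.32 for BRG1. Its CTCF match has no mismatch. The region that carries both AP-1 and TEAD is in an intron, 22.8 kb from the start of ILDR2, with a BAF155 fold of 7.44, and the one with 2 ZIC matches is in an intron 54.9 kb from a start of GRID1, a glutamate receptor subunit gene, with a fold of 7.35. The octamer example lies in an intron 1.89 kb from a start of MYH15, with a fold of 5.96. The OCT4-SOX2 example lies in an intron, with RGMA, a repulsive guidance molecule, as the nearest coding start at 273 kb, and has 2 mismatches. The GRHL example is intergenic, 702 kb from TLE4.

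The search covered 22 motifs on both strands. The letters were CATTGT or CTTTGT for SOX, ATGCAAAT for the octamer of POU factors, CCTGCTG for ZIC, ACATTCC or GCATTCC for TEAD, TGACTCA or TGAGTCA for AP-1, TGTTTAC for FOX, CTTTGAT for TCF/LEF and GGGATTA for OTX. GRHL was AACCAGTT, AACCGGTT, AACTAGTT or AACTGGTT, and KLF was GGGCGGGGC, GGGCGTGGC, GGGTGGGGC or GGGTGTGGC. The others were TAATTA for homeodomains, CAGGTG for the ZEB E-box, ACGGAAGT or CCGGAAGT for ETS, GCCNNNGGC for TFAP2, CAAGGTCA for NR5A/ESRRB, GTTGCCA for an RFX half-site, CGCATGCG for NRF1 and GGTCTCTAA for PRDM14, with the palindromic NFI element allowed 1 mismatch. For the zinc finger factors of the GATA family, AGATAA and the same letters with a leading T were searched. The OCT4-SOX2 composite element of 15 letters was allowed 2 mismatches and the CTCF core of 14 letters 1 mismatch. A match names a family of factors, not a bound protein. Letters overlap between motifs: the composite element contains a SOX core and most of an octamer, and a CTCF core can contain the ZIC letters.

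The CTCF sites of 5 members of high fold, set one above the other, show how far the core varies. Each has 30 bases, is written in the direction of the motif, and has its core in capitals.
LMX1B, chr9:126558211-126558240, minus strand: cataccagCCAGCAGATGGCAGcagagaac
MLPH, chr2:237512916-237512945, plus strand: ccaaggggCCAGGAGGTGGCGCtgtggggc
KCNAB2, chr1:6041620-6041649, plus strand: ccccgtggCCACCGGGTGGCGCtgctgcag
SV2B, chr15:91247760-91247789, minus strand: aggctctgCCAATAGAGGGCGCtagaggga
MEX3C, chr18:51278218-51278247, plus strand: atcacacaCCTCTAGGGGGCACtgtttgct
The names are those of the nearest protein-coding genes. The LMX1B site has no mismatch and each of the other 4 has 1. Their folds ran from 5.97 to 10.5, and their widths from 218 to 303 bp, all narrower than the median member of 335 bp.

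Members were set against 200 bp windows 2 kb to either side of themselves. Sequence was not used by the rule. Of the 22 motifs, 13 were more frequent in members than in these flanks with an interval that left out 1, 3 were less frequent, and 6 had an interval that included 1. The CTCF core was present in 5.38% of members and 0.452% of flanks, an odds ratio of 12.5 (95% interval 10.8 to 14.6). The OCT4-SOX2 element followed with 4.23% against 0.935% (4.67, interval 4.16 to 5.25). AP-1 was present in 10.0% against 3.23% (3.34, interval 3.12 to 3.57) and ZIC in 13.8% against 4.64% (3.30, interval 3.12 to 3.50). TEAD reached 11.3% against 5.17% (2.33, interval 2.20 to 2.47), the octamer 3.73% against 1.87% (2.04, interval 1.85 to 2.25) and FOX 5.77% against 3.01% (1.97, interval 1.82 to 2.13). For each of these 7 motifs the share in members was the higher one on 23 of 23 chromosomes. The SOX core was present in 34.4% against 24.9% (1.58, interval 1.53 to 1.64), higher on 22 chromosomes.

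Other motifs differed less. KLF letters gave an odds ratio of 1.44 (interval 1.24 to 1.69) and TFAP2 letters 1.42 (interval 1.31 to 1.52), and over bins of GC content their log2 odds ratios were 0.13 (interval -0.10 to 0.36) and 0.15 (interval 0.04 to 0.27). TCF/LEF had an odds ratio of 1.2998 (interval 1.20 to 1.41), the RFX letters 1.303 (interval 1.17 to 1.45) and the ZEB E-box 1.03 (interval 0.983 to 1.07). Over GC bins the ZEB E-box turned to a log2 odds ratio of -0.22 (interval -0.29 to -0.16). GRHL letters were present in 1.05% of members and 0.956% of flanks, with an odds ratio of 1.10 (interval 0.935 to 1.29) and, over GC bins, a log2 odds ratio of 0.25 (interval 0.01 to 0.48). The 3 motifs that were less frequent in members were GGGATTA of OTX factors (4.17% against 8.005%, odds ratio 0.49994, interval 0.464 to 0.538), TAATTA (6.83% against 7.93%, 0.851, interval 0.7996 to 0.906) and NR5A/ESRRB. TAATTA turned to the more frequent side over GC bins (log2 odds ratio 0.14, interval 0.05 to 0.23). The NR5A/ESRRB site, bound by nuclear receptors of naïve cells, was present in 1.02% against 1.39% (odds ratio 0.731, interval 0.627 to 0.852).

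At least 1 of the CTCF, AP-1, TEAD, ZIC, FOX and OCT4-SOX2 motifs was present in 9283 members (41.7%, interval 41.1 to 42.4%), against 16.3% of flanks. Counting the SOX core as well brought this to 61.1% of members and 37.0% of flanks. The remaining 8640 members held none of the 7.

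**Figure D1:**
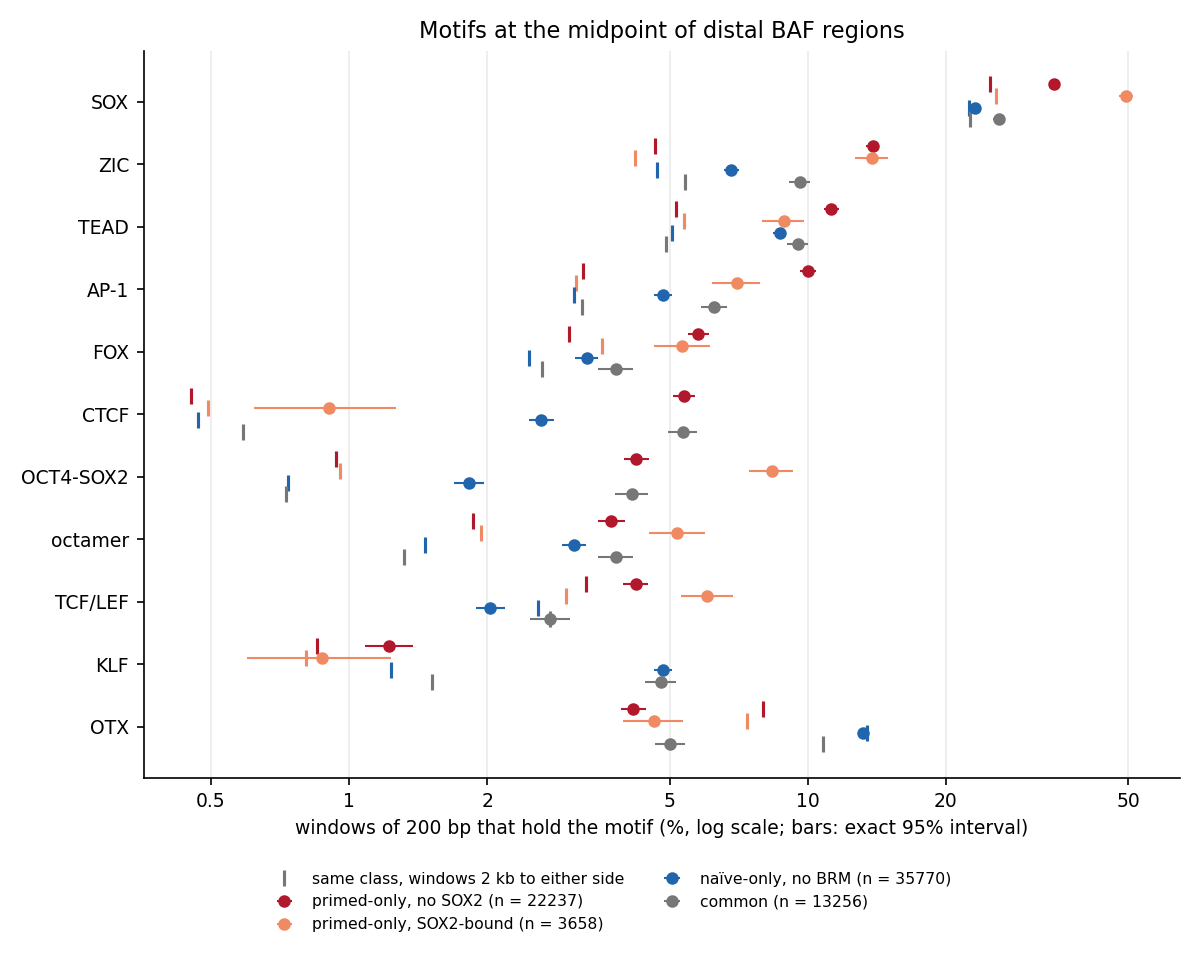
Share of 200 bp midpoint windows that hold each motif (x axis, percent, log scale) for 4 classes of distal BAF regions; dots with bars give the share and its exact 95% interval, and short vertical marks give the windows 2 kb to either side of the same class. CTCF sits at 5.38% in primed-only regions without SOX2 and 0.902% in SOX2-bound ones, whereas SOX and OCT4-SOX2 sit higher in the SOX2-bound class and KLF higher in the naïve-only and common classes.

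Matches were concentrated at the midpoint. In the central 100 bp of members the CTCF core occurred 0.373 times per kb, against 0.0221 per kb at more than 1 kb from the midpoint, a ratio of 16.9. The corresponding ratios were 5.14 for OCT4-SOX2, 3.80 for AP-1, 3.63 for ZIC, 2.46 for TEAD, 2.18 for FOX and 1.59 for SOX. In SOX2-bound distal primed-only regions the ratio was 1.82 for CTCF and 10.2 for OCT4-SOX2.

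**Figure D2:**
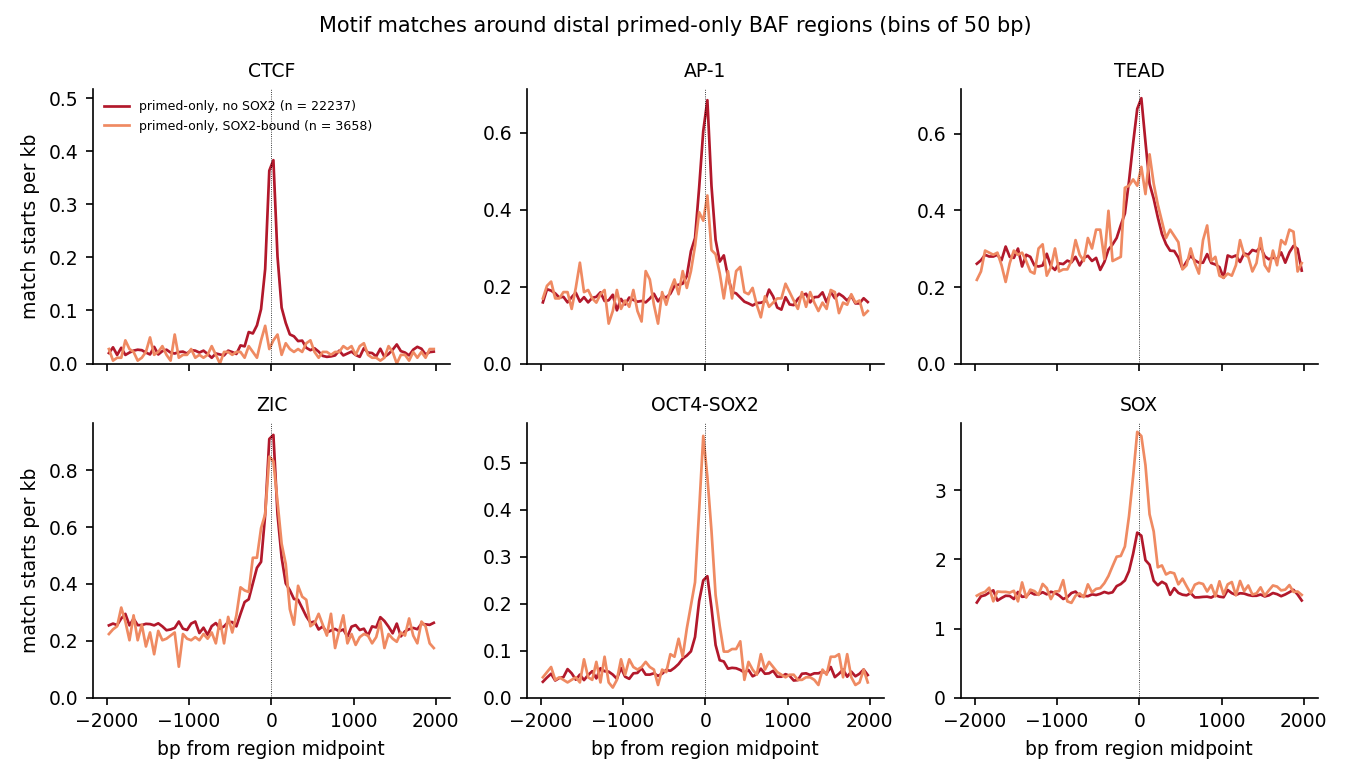
Matches per kb of sequence (y axis) by distance from the region midpoint in bp (x axis, bins of 50 bp) for 6 motifs, in 22237 distal primed-only regions without SOX2 and 3658 SOX2-bound ones. Each match is placed by its middle, although the axis label names match starts. At the centre CTCF reaches 16.9 times its level beyond 1 kb in the first class and 1.82 times in the second, OCT4-SOX2 and SOX peak higher in the second, and ZIC reaches 0.916 per kb in the first and 0.839 in the second.

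To ask what sets these regions apart from primed-only regions where SOX2 was called, members were compared with the 3658 distal primed-only regions that hold a primed SOX2 peak. CTCF cores were the most unequal, at 5.38% of members and 0.902% of SOX2-bound regions (odds ratio 6.24, interval 4.41 to 8.84, higher in members on 23 of 23 chromosomes). Cores with no mismatch were found in 328 members (1.475%) and in 1 SOX2-bound region (0.0273%). AP-1 (10.0% against 6.998%, odds ratio 1.48, interval 1.295 to 1.69, 21 chromosomes) and TEAD (11.3% against 8.86%, 1.31, interval 1.16 to 1.48, 19 chromosomes) were also more frequent in members. So were the ZEB E-box (16.6% against 12.2%, 1.43, interval 1.29 to 1.59, 20 chromosomes) and TFAP2 letters (5.62% against 3.99%, 1.43, interval 1.20 to 1.71, 19 chromosomes). GATA letters gave 1.13 (interval 1.04 to 1.23, 17 chromosomes). Over GC bins the log2 odds ratio of TFAP2 was 0.21 (interval -0.05 to 0.47). In SOX2-bound regions the ZEB E-box was less frequent than in their own flanks (odds ratio 0.834, interval 0.741 to 0.939).

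Motifs of the SOX and POU group were less frequent in members. The 2 classes were split by a SOX2 peak, so for the SOX core and the composite element the split itself favours this direction. The SOX core was present in 34.4% against 49.5% (odds ratio 0.536, interval 0.499 to 0.575, lower in members on 23 chromosomes). The OCT4-SOX2 element was present in 4.23% against 8.34% (0.485, interval 0.424 to 0.555), and 88.3% of the members that held it had 2 mismatches, against 84.9% of the SOX2-bound regions that held it. The octamer (0.708, interval 0.602 to 0.832) and TCF/LEF (0.686, interval 0.590 to 0.797) shared this direction, as did TAATTA (0.838, interval 0.736 to 0.955). Leaving out windows with the composite element, the SOX core still differed (33.4% against 48.1%, 0.542, interval 0.503 to 0.583), and for the octamer the interval then included 1 (0.881, interval 0.720 to 1.08).

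ZIC letters were present in 13.8% of members and 13.8% of SOX2-bound regions (odds ratio 1.01, interval 0.909 to 1.11, higher in members on 11 of 23 chromosomes). With windows that hold a CTCF core left out on both sides, they were present in 13.2% of members and 13.7% of SOX2-bound regions (0.963, interval 0.869 to 1.07), and still 3.18 times in odds above the flanks (interval 2.99 to 3.37). FOX letters gave 1.09 (interval 0.932 to 1.27).

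The SOX2-bound regions were the stronger peaks, and this has to be read beside these differences. Median BAF155 fold was 3.12 in members (quartiles 2.86 to 3.53) and 3.97 in SOX2-bound regions (3.38 to 4.75). A BRG1 peak was present in 6.97% and 41.1%, and median width was 335 and 584 bp. The 200 bp window covers less of a wide region, and width was not binned. When all distal primed-only regions were divided into 5 equal bins by BAF155 fold, the share with a SOX2 peak was 3.93% in the lowest bin, 4.98%, 8.15% and 14.6% in the next 3, and 39.1% in the highest. Pooled within these bins (Mantel-Haenszel), the odds ratios of members against SOX2-bound regions were 6.65 for CTCF (interval 4.66 to 9.47), 1.89 for AP-1, 1.55 for TEAD, 1.24 for FOX, 1.22 for ZIC (interval 1.09 to 1.36), 0.568 for SOX and 0.535 for OCT4-SOX2. Without the bins, the intervals of ZIC and FOX included 1. Within the highest bin, CTCF was present in 6.26% of 3147 members and 0.842% of 2019 SOX2-bound regions, and the SOX core in 36.7% and 49.3%.

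Members with a motif differed in shape and strength. Only the central 200 bp were searched, so a wide region may hold a motif outside its window. Those with a CTCF core were narrow, with a median width of 226 bp against 411 bp for members with none of the 7 motifs, had a GC content of 52% and lay 19.6 kb from the nearest coding start. Members with the OCT4-SOX2 element had 40.5% GC and lay 46.1 kb away, and those with FOX letters 36.6 kb away. Median BAF155 fold was 3.20 with CTCF, 3.26 with AP-1, 3.22 with ZIC, 3.21 with TEAD and 3.05 with no motif. A fold of at least 4 was found for 15.0% of the AP-1 members (interval 13.6 to 16.6%), 14.6% of the ZIC members and 8.25% of those with no motif (interval 7.68 to 8.85%). From the lowest to the highest of the 5 bins of fold, AP-1 letters went from 7.33% to 14.3% of members, ZIC from 10.9% to 18.2%, TEAD from 9.17% to 14.9% and CTCF from 4.55% to 6.26%.

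CTCF cores shared a window with most of the other motifs less often. Among members with an OCT4-SOX2 element, 13 held a CTCF core (1.38%), against 5.55% of the other members (odds ratio 0.238, interval 0.137 to 0.413). The odds of a CTCF core were also lower with AP-1 (0.451, interval 0.346 to 0.588), FOX (0.492) and TEAD (0.520) letters. They were higher with ZIC letters (2.17, interval 1.89 to 2.49), where the overlap of letters counts on both sides. AP-1 and TEAD letters, side by side in the ILDR2 region, occurred together in 263 members, and AP-1 was present in 10.5% of members with TEAD letters and 9.97% of those without (odds ratio 1.06, interval 0.925 to 1.21).

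The 1551 members in which BRG1 was also called had more TEAD (14.0% against 11.1%, odds ratio 1.31, interval 1.13 to 1.52), AP-1 (12.1% against 9.88%, 1.25, interval 1.07 to 1.47) and ZIC letters (16.4% against 13.7%, 1.24, interval 1.08 to 1.42) than the members without a BRG1 peak. CTCF (1.16, interval 0.935 to 1.44) and FOX (1.03, interval 0.829 to 1.28) had intervals that included 1, as did OCT4-SOX2 (0.757, interval 0.568 to 1.01). The SOX core was slightly less frequent (31.98% against 34.6%, 0.889, interval 0.796 to 0.993).

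The 35770 distal naïve-only regions without BRM were filtered by BRM and not by SOX2. A BAF155 peak was present in 71.8% of them and a BRG1 peak in 60.9%, against 99.7% and 6.97% of members. Differences of state and of antibody cannot be told apart in this comparison. Compared with these regions, members held more OCT4-SOX2 (odds ratio 2.37, interval 2.142 to 2.62, 22 of 23 chromosomes), ZIC (2.20, interval 2.08 to 2.32), AP-1 (2.19, interval 2.05 to 2.34), TCF/LEF (2.13, interval 1.93 to 2.34), CTCF (2.11, interval 1.93 to 2.3005), FOX (1.80, interval 1.66 to 1.95) and SOX letters (1.74, interval 1.67 to 1.80), the last 6 on 23 of 23 chromosomes. KLF letters, the sites of Krüppel-like factors that mark naïve cells, were present in 1.22% of members and 4.83% of naïve-only regions (0.244, interval 0.214 to 0.277), lower in members on 23 chromosomes. TFAP2 letters gave 0.551 (interval 0.515 to 0.589) and ETS letters 0.513 (interval 0.379 to 0.696). CTCF cores were present in 5.33% of the 13256 common regions away from promoters (odds ratio of members 1.01, interval 0.917 to 1.11), and over GC bins they were more frequent in members (log2 odds ratio 0.55, interval 0.40 to 0.69). ZIC (1.51, interval 1.41 to 1.62) and AP-1 (1.67, interval 1.54 to 1.82) were also more frequent in members.

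Repeated sequence differed between the classes. A window was called repeated when more than 50% of its 32-base stretches occur more than once in hg38. This was the case for 407 members (1.83%, interval 1.66 to 2.02%), 1.72% of SOX2-bound regions, 4.90% of common regions, 7.92% of the flanks of members and 15.6% of naïve-only regions without BRM (interval 15.2 to 15.9%). The odds ratio of members was 0.217 against their flanks (interval 0.195 to 0.241) and 0.101 against the naïve-only regions (interval 0.0913 to 0.112). BAF libraries were single-end and were aligned with the default settings of the aligner, and no filter on mapping quality is named, so the part of repeated alignments in this difference was not tested. The letters GGGATTA moved with repeats: they were present in 4.17% of members, 8.005% of flanks and 13.2% of naïve-only regions, and in 39.1% of the repeated naïve-only windows. Without repeated windows the odds ratio of members was 0.700 against flanks (interval 0.645 to 0.760) and 0.423 against naïve-only regions (interval 0.390 to 0.458). In the same windows OCT4-SOX2 was 2.10 against naïve-only regions, ZIC 1.96, AP-1 2.07, CTCF 1.87 and KLF 0.218.

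Members lay at a distance from promoters, which the rule only set to more than 1 kb. The midpoint was in an intron for 62.5%, in intergenic sequence for 32.7% and in an exon for 4.81%. The nearest protein-coding transcript start was at a median of 29371 bp, against 45354 bp for SOX2-bound regions, 16674 bp for naïve-only regions without BRM and 19214 bp for common regions. It was more than 100 kb away for 25.1% of members, 32.9% of SOX2-bound regions and 14.0% of naïve-only regions (odds ratio of members 0.682, interval 0.633 to 0.736, and 2.07, interval 1.98 to 2.16). The median distance was shorter in members than in SOX2-bound regions on 23 chromosomes, and longer than in naïve-only regions on 22. Median GC content was 44.5% in members, 42% in their flanks and 49% in naïve-only regions. The nearest naïve BAF region was at a median of 14237 bp, and within 1 kb for 1625 members (7.31%). The nearest primed SOX2 peak was at a median of 81369 bp, and within 1 kb for 155 members. These 2 gaps bear on the rule and are given as a description.

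**Figure D3:**
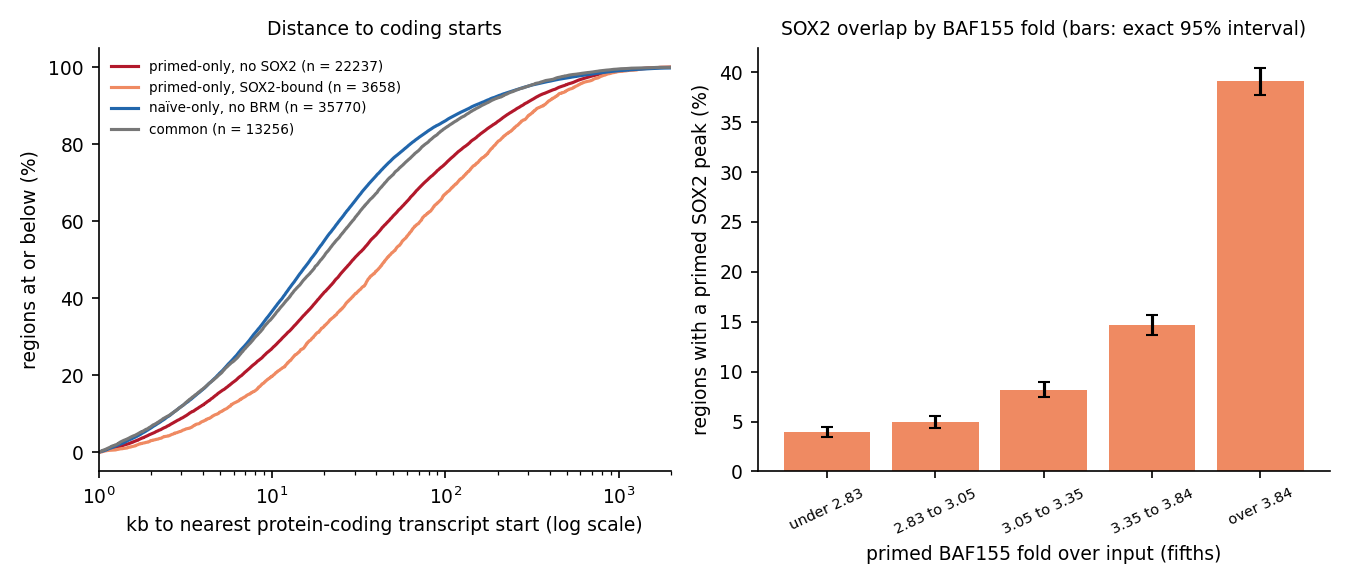
Left, cumulative share of regions (y axis, percent) by distance to the nearest protein-coding transcript start (x axis, kb, log scale) for 4 classes of distal BAF regions; right, share of distal primed-only regions with a primed SOX2 peak (bars with exact 95% intervals) in 5 bins of BAF155 fold. Members lie between the naïve-only and the SOX2-bound regions, with medians of 29371, 16674 and 45354 bp, and the share with SOX2 goes from 3.93% to 39.1%.

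At the edges of the rule, 253 members shared some bases with a naïve BAF region but under 25%, with a median BAF155 fold of 2.98. The 170 regions that shared 25% to under 35%, just outside the rule, had 3.09. The 181 members with a midpoint in the first 100 bp beyond the 1 kb limit had a median fold of 3.01, and the 180 regions in the last 100 bp inside it had 3.05. A further 10 members shared bases with a SOX2 peak below the limit.

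Peaks of the lists that the rule did not use were rare at members. Naïve BRM and naïve SOX2 were measured in the cells whose BAF regions the rule leaves out. The study reports that most naïve BRM peaks are shared with naïve BAF peaks, so a low overlap with them is largely set by the rule. Naïve BRM peaks overlapped 87 of them (0.391%, interval 0.313 to 0.482%), naïve SOX2 peaks 14 (0.0630%, interval 0.0344 to 0.106%) and the 167 primed BRM peaks 1. Naïve SOX2 peaks were at 0.765% of SOX2-bound primed-only regions and 0.934% of naïve-only regions without BRM.

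Density was even over most chromosomes, with a median of 7.79 members per Mb of sequenced bases and a range from 4.07 on chromosome 19 to 8.50 on chromosome 22. Chromosome 21 had 4.79 and chromosome X 6.43. Naïve-only regions without BRM ran from 5.89 per Mb on X to 38.0 on chromosome 19. Chromosome 19 held 1.07% of members and 6.21% of naïve-only regions (odds ratio 0.163, interval 0.143 to 0.187), and chromosome X 4.48% and 2.55% (1.79, interval 1.63 to 1.96).

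**Figure D4:**
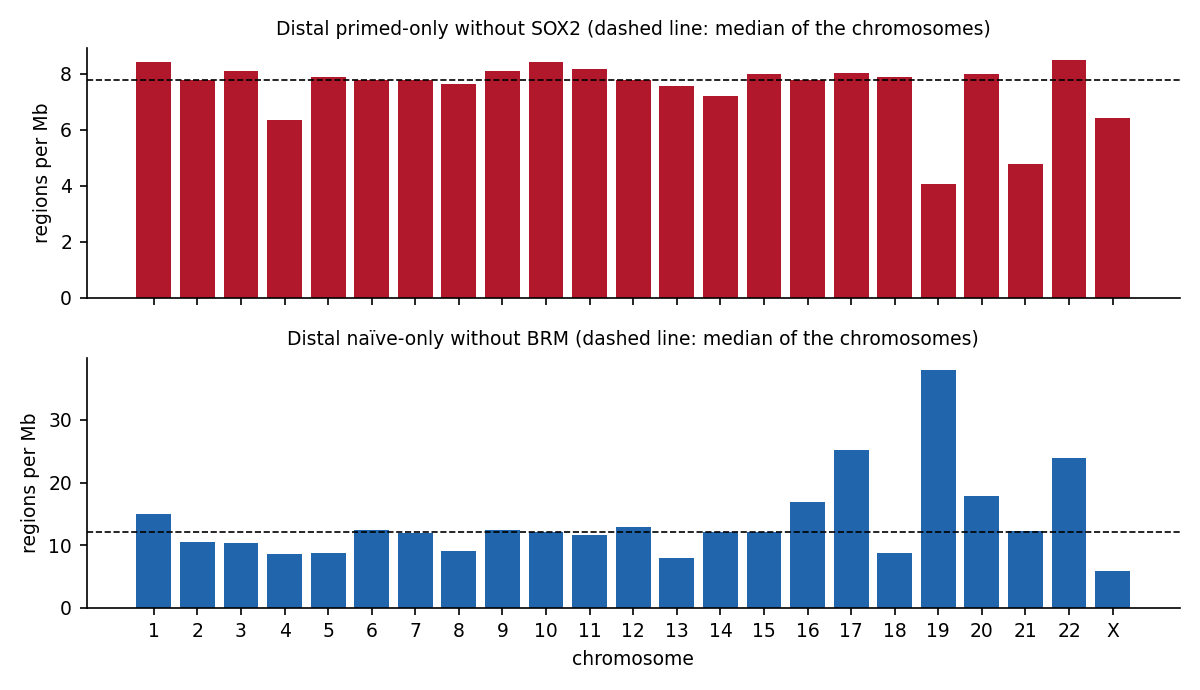
Regions per Mb of sequenced bases (y axis, each panel with its own scale from 0) on chromosomes 1 to 22 and X for distal primed-only regions without SOX2 (top) and distal naïve-only regions without BRM (bottom); the dashed line is the median of the chromosomes. The top row is lowest on chromosome 19 (4.07) and the bottom row highest there (38.0).

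The 10 members of highest fold began with the LMX1B region. The others were near RNASE11 (fold 7.88), TCF7L2, a WNT effector of the TCF/LEF group (7.70, 118 kb from its start), UNC5D, a netrin receptor (7.57), ILDR2 (7.44), GRID1 (7.35), GIP (7.21), TNRC6A (7.20), ZNF92 (7.18) and EPHA5, an Eph receptor of axon guidance (7.10). BRG1 was also called at 8 of the 10, all but TNRC6A and ZNF92. The window near RNASE11 held SOX and FOX letters, that near UNC5D held ZIC and TEAD, and that near TNRC6A held AP-1. None of the 22 motifs was found near TCF7L2, GIP or ZNF92.

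Joined when under 10 kb apart, the members formed 18863 groups, and 16141 members (72.6%) stood alone. There were 24 groups of 5 or more. The densest had 10 members over 41.9 kb at GATA3 (chr10:8034150-8076056), a zinc finger factor of trophectoderm, surface ectoderm and several later lineages. It held 2 common regions and no naïve-only region without BRM. The next held 8 members over 18.8 kb at PAX7 (chr1:18626802-18645581), a paired-box factor of neural crest and muscle. Groups of 8 at CLYBL (25.7 kb), 7 at EFNA5, an ephrin ligand (34.4 kb), and 7 at ECE1, the endothelin-converting enzyme (19.2 kb), followed. By whole genes, the most members within 60 kb of a gene body were at long genes: PTPRD had 30, GSE1 28 and PTPRG 26. PTPRD, a receptor phosphatase of synapses, had 2 naïve-only regions without BRM, whereas GSE1 had 25.

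To see which genes lay close by, 19962 protein-coding genes were examined with the 20 kb distance that the study used for target genes. The study gave a peak only its nearest gene. Here a region counts for every gene with a transcript start in that distance, so the shares are not those of its target genes. A member lay within 20 kb of a transcript start for 34.5% of them, and a naïve-only region without BRM for 59.0%. Genes with more members than naïve-only regions within 60 kb of the gene body made up 18.9%. Counts for 13 gene lists are read beside these shares, with no test. The lists were compiled with earlier results of these data known, and genes with many transcript starts have more chances of a neighbour. Genes named under each list were picked for the most members within 60 kb of the gene body. Their counts therefore lean toward members, and long genes have more room for regions. Over all 246 listed genes, 148 (60.2%) had a member within 20 kb. With the start of the gene itself in place of all its transcripts, 123 had one, against 23.45% of all protein-coding genes.

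The lists of ectoderm regulators and of adhesion genes had the highest shares. Among 25 regulators of neuroectoderm, 20 (80%) had a member within 20 kb and 17 (68%) a naïve-only region, and 16 had more members than naïve-only regions within 60 kb. SOX5, a SOXD factor of neural cells, had 12 members and 4 naïve-only regions within 60 kb of its gene body. No member lay within 20 kb of a SOX5 transcript start. Its strongest member had a fold of 5.16 and lay 794 kb downstream of the gene start. MEIS2, a TALE homeodomain factor, had 9 and 2. NRCAM, a neural cell adhesion molecule, had 9 and 4, and ZEB2, a transcriptional repressor active in neural and mesenchymal cells, 8 and 5. Of 21 regulators of neural crest and surface ectoderm, 16 (76.2%) had a member nearby and 10 (47.6%) a naïve-only region. PAX7 had 14 members and 5 naïve-only regions, GATA3 10 and 5, PAX3 7 and 0, and GRHL2 7 and 6. Within the 20 regulators of primitive streak and mesoderm, 14 (70%) had a member and 10 (50%) a naïve-only region. EVX1, a homeobox gene of the streak, had 6 and 2, TBX3 5 and 6, CDX1 5 and 4 and FOXF1 5 and 2.

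Endoderm regulators had a member near 14 of 20 genes (70%) and a naïve-only region near 11 (55%). GATA4 had 6 members and 4 naïve-only regions, FOXA1, a pioneer factor, 6 and 0, and SOX17 4 and 2. For trophoblast regulators the shares were 8 of 20 (40%) and 13 of 20 (65%), and within 60 kb of a transcript start 15 of the 20 had a member, where 58.9% of all protein-coding genes did. Within 60 kb of the gene body TEAD4 had 5 and 9, TP63 4 and 7 and DLX3 3 and 5. TP63 and DLX3 had no member within 20 kb of a transcript start. GATA3 is on this list as well.

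For genes of the states themselves, the counts were as follows. Of 20 genes of the primed state, 12 (60%) had a member within 20 kb and 14 (70%) a naïve-only region. CDH2, the N-cadherin of primed cells, had 10 members and 1 naïve-only region within 60 kb, ZIC2 6 and 2, SALL1 4 and 3, and TCF7L1 7 and 9. One member near ZIC2, 6723 bp wide, was the widest of all. Of the 19 measured genes of the naïve state, 5 (26.3%) had a member and 16 (84.2%) a naïve-only region, and no gene had more members than naïve-only regions. TFCP2L1 had 3 and 6, KLF4 1 and 13, KLF5 1 and 8 and TFAP2C 1 and 15. Among 15 genes of core pluripotency, 7 (46.7%) had a member and 12 (80%) a naïve-only region. PRDM14 had 3 and 9, LIN28B 3 and 4, L1TD1 2 and 8 and NANOG 2 and 8.

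The signalling lists ranged from 55% to 64%. A member was found near 16 of 25 WNT genes (64%), with TCF7L2 at 14 members and 7 naïve-only regions within 60 kb, FZD2 at 7 and 6 and LGR4 at 6 and 7. In the FGF and ERK pathway 11 of 20 genes (55%) had a member, with FGFR2 at 6 and 7, ETV1 at 5 and 2, ETV5 at 5 and 2 and FGF13 at 5 and 1. In the NODAL, activin and BMP pathway the count was 14 of 24 (58.3%), with BMPR1A at 8 and 8, SMAD2 at 6 and 3, the inhibitory SMAD7 at 6 and 11 and the ligand BMP7 at 5 and 1. In the TEAD and YAP pathway it was 10 of 16 (62.5%), with TEAD1 at 12 and 8, the coactivators YAP1 at 8 and 4 and WWTR1 at 7 and 9, and AMOTL1 at 6 and 0. Among 20 cadherins and adhesion genes 16 (80%) had a member, but 9 did when the start of the gene itself was used. CTNNA2 had 18 and 5, CDH13 14 and 6, and CTNNA1 7 and 19.

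**Figure D5:**
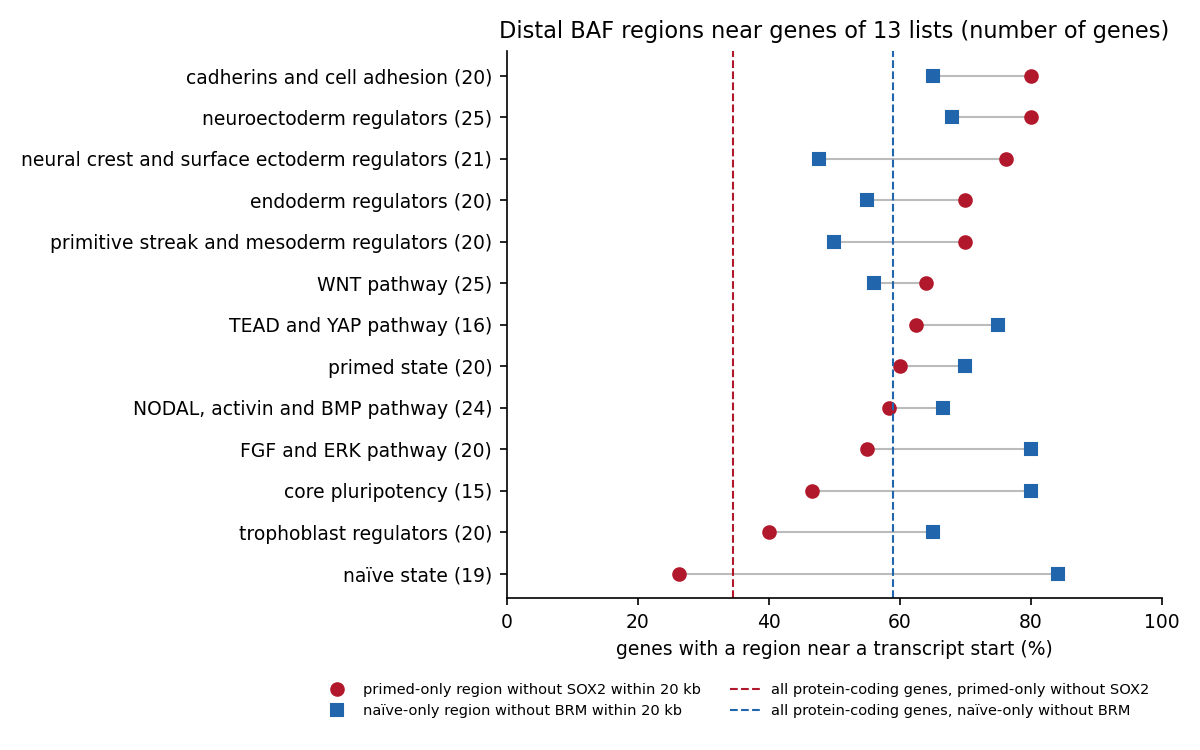
Share of genes in 13 lists (y axis, with the number of genes) that have a distal primed-only BAF region without SOX2 (circles) or a distal naïve-only region without BRM (squares) within 20 kb of a transcript start (x axis, percent); dashed lines give the same shares over 19962 protein-coding genes, 34.5% and 59.0%. Ectoderm and adhesion lists reach 76.2% to 80% for members, and the naïve-state list 26.3% against 84.2% for naïve-only regions.

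At SOX2, SALL1 and PTPRZ1, regions with and without SOX2 stood side by side. SOX2 itself (chr3:181711925-181714436) had 2 members within 60 kb, 18.99 and 41.6 kb downstream of its start, with BAF155 folds of 3.43 and 2.94, and 1 SOX2-bound distal primed-only region and no naïve-only region without BRM. SALL1, a zinc finger factor of neural and kidney progenitors, had 4 members and 1 SOX2-bound region. Its 2 strongest members lay 38.6 and 29.9 kb downstream of the start, with folds of 3.77 and 3.69 and none of the 7 motifs. PTPRZ1, a receptor phosphatase of neural progenitors, had 3 members and 2 SOX2-bound regions. The strongest of its members had a fold of 3.00 and ZIC and SOX letters, and the next had a fold of 2.87 and an OCT4-SOX2 element.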

How the data were processed

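ChIP-seq peak lists of WIBR3 hESCs were used as deposited. The authors trimmed reads, mapped them to hg38 (Bowtie2 2.3.4 and SAMtools 0.1.19 per the submitters' processing notes), removed duplicates and called peaks against input with MACS2, broad for BAF subunits and narrow for SOX2. Per peak, the deposited lists give a score, a fold over input (ratio) and −log10 of p-values and q-values. Lists of primed BRM and the second SOX2 libraries give positions alone. No reads or coverage were used.

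Peaks on 23 chromosomes were merged and classed as described. Shares have exact Clopper-Pearson intervals and odds ratios have Woolf intervals at the 95% level, with 0.5 added where a count was 0. GENCODE release 44 gave transcript starts and genes, and hg38 the sequence (samtools 1.23.1, numpy 2.4.6, pandas 2.3.3, scipy 1.17.1, statsmodels 0.14.6). The motif and repeat searches were tested on simulated sequence.

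The members, gene lists and motifs were chosen with earlier results of these data known. Regions named were the 10 members of highest fold, the strongest with each of 7 motifs outside chromosome 8, and the 5 densest groups. Genes named were up to 4 per list with the most members within 60 kb, plus SOX2, SALL1 and PTPRZ1. A gene that this rule names is not reported here. The aligned CTCF sites, the ZEB E-box and other motifs singled out, and the genes with the most members of all, were picked after their values were seen. ALPPL2 had no match among gene names and was left out.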

Additional observations from a re-analysis of the deposited data

How the results depend on the processing

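Alternatives changed the overlap rule, the distance to transcript starts, the peaks used, the window and flanks, and took GC content into account. Added after seeing the data were windows of mostly unique sequence, windows without a CTCF core for ZIC, and the start of the gene itself for the gene lists. For the 7 motifs followed (SOX, OCT4-SOX2, ZIC, TEAD, AP-1, CTCF and FOX), all 113 alternative values against flanks kept the direction and the side of the main interval, which leaves out 1 or includes it, and the CTCF odds ratio ran from 8.20 to 17.9. Against naïve-only regions 105 of 106 did, the exception being FOX with peaks of fold of at least 4 (log2 odds ratio 0.44, interval -0.06 to 0.95). Against SOX2-bound regions 93 of 106 did. CTCF stayed between 4.93 and 14.0 there and SOX between 0.336 and 0.601. ZIC, whose interval included 0 on the log2 scale, took log2 odds ratios of -4.4e-05 with any shared base, -0.34 with 50% of both regions covered, -0.035 at 5 kb from transcript starts, -0.068 with 400 bp windows, -0.0684 over GC bins, -0.0018 in unique windows and -0.054 without CTCF cores, and had intervals above 0 with −log10 q of at least 3 (0.34) and fold of at least 4 (0.49). With 50% of both covered, TEAD (0.19) and AP-1 (0.17) had intervals that included 0, and FOX turned to -0.22. FOX was at -0.0037 with fold of at least 4. The cause was not tested. The number of members was 9179 with −log10 q of at least 3, 4126 with fold of at least 4 and 1551 with a BRG1 peak required. Under the other alternatives it was within 1.5 times of the main number. Genes of the lists with a member within 20 kb numbered 24 with fold of at least 4 (9.76%, against 4.86% of all protein-coding genes). No paired analysis was possible because each BAF group has 1 library and both SOX2 lists of a state hold the same coordinates. Putting the second SOX2 list in place of the first left 22237 members, as it must with identical coordinates. Its values repeat the main ones and are counted as kept in the numbers above, so they add no evidence. The depth of the libraries was not used here, and no value has a replicate error.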

Other observations

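Counted by transcript starts, the genes with the most primed-only regions without SOX2 within 20 kb were FOXP1 with 14, AUTS2 with 13 and NEDD4L with 12. FOXP1, a forkhead factor, also had 15 distal naïve-only regions without BRM. TCF4, a basic helix-loop-helix factor of neural progenitors, had 10 primed-only regions and no naïve-only region, and the strongest region around it had a fold of 5.24. ZNF608 had 9 and none, and RERE had 10 and 21. Among the genes with many members within 60 kb, the naïve-only regions varied. RAD51B had 23 members and 29 naïve-only regions, NRXN3 23 and 10, ADGRL2 23 and 4, LSAMP 22 and 14, and NTM 22 and 1. These genes were picked after their values were seen, and long genes have more room for regions, so the counts are given with no test.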
